A study of Mus musculus with 5 samples.

Results

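Sema4d, Sema6d, Efnb2 and Ephb4 encode membrane proteins through which osteoclasts, the cells that resorb bone, and osteoblasts, the cells that build it, signal to each other. All probe sets annotated with these symbols were taken, which gave 1 probe set each for 3 of the 4 genes, among 8251 genes on the array. No probe set carried the symbol Ephb4 in the annotation used, and this gene was not analysed here. Sema4d was chosen by its large difference between Fos-/- and Fos+/+ spleen cultures, so its values in that comparison are a description. RNA was measured in 5 mouse co-cultures with 1 array each, so no value below has a replicate error and no test was possible. Every culture set haematopoietic cells on a layer of ST2-T stroma for 6 days, with dexamethasone and 1,25-dihydroxyvitamin D3 in the medium, and the whole dish was harvested, so each array reads both cell populations.

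The groups were Fos-/- splenocytes infected with a deltaNFAT virus, Fos-/- splenocytes given a control virus for green fluorescent protein (GFP), Fos-/- splenocytes without virus, Fos+/+ bone marrow cells and Fos+/+ splenocytes. The labels give no viral dose, no animal age or strain and no description of the deltaNFAT construct. Fos codes for 1 part of the AP-1 transcription factor, and NFAT proteins are transcription factors that act downstream of calcium signals in osteoclast precursors. Intensities are on a linear scale in array units. A call of higher or lower needed a difference of at least 2-fold between the arrays and a reading of 39.6 or more in the brighter one. That is 2 times the floor of 19.8, and values under the floor were set to it before a ratio was taken. The lowest 1 percent of values in an array lay below a value between -133 and -77.6, whose mean size over the arrays was 96.6, so intensities under about that size lie within the range of the background. The targeted gene Fos (probe set of the brighter signal) read 581 with deltaNFAT virus, 607 with GFP virus and 426 without virus in Fos-/- spleen, against 614 in Fos+/+ bone marrow and 848 in Fos+/+ spleen. These readings do not check the genotype labels, since where the probe set lies relative to the deletion is not stated and the stroma of the dish is measured too.

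Semaphorins are secreted or membrane-bound guidance proteins that act mainly through plexin receptors, and ephrins are membrane-bound ligands of the Eph receptor tyrosine kinases. In the mouse, Sema4d made by osteoclasts acts on plexin-B1 of osteoblasts and restrains bone formation. Sema6d binds plexin-A1, which in myeloid cells works with Trem2 and the adaptor Tyrobp. Ephrin-B2, the product of Efnb2, sits on osteoclasts and pairs with EphB4 on osteoblasts, where each partner signals into its own cell.

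The Sema4d gene lies on the minus strand of chr13:51685529-51793678 (GRCm38.p6), and RefSeq promoter windows for 3 of its transcription starts were examined because the study perturbs AP-1 and NFAT. Each window runs from 250 bases before to 50 bases after a start and lies inside the annotated gene. On each, capitals mark the AP-1 pattern TGANTCA, where N was allowed to be any base, and the NFAT core GGAAA on either strand (TTTCC on the reverse). The AP-1 pattern is the same on both strands. The matches did not overlap each other.
Sema4d window 1, chr13:51756634-51756933: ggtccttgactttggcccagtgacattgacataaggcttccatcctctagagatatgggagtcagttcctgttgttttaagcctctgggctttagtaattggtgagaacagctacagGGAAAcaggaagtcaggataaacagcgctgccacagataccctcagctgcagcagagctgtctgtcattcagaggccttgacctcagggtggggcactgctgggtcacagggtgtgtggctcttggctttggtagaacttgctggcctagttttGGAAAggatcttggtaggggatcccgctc
Sema4d window 2, chr13:51748761-51749060: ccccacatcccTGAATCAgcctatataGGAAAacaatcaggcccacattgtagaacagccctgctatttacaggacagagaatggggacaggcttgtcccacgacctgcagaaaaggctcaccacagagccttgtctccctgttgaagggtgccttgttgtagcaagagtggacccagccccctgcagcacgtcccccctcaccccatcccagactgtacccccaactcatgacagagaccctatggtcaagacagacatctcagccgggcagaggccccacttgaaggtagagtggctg
Sema4d window 3, chr13:51739397-51739696: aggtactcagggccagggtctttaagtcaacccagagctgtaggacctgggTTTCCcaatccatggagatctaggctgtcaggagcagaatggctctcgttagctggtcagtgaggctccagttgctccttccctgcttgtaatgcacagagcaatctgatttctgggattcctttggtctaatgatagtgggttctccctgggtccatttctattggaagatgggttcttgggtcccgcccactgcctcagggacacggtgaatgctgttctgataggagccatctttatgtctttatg

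The second window holds 1 match to the AP-1 pattern, TGAATCA, starting 239 bases before the transcription start. It also holds 1 NFAT core, starting 223 bases before that start. The first window holds 2 NFAT cores and the third window 1, and neither holds the AP-1 letters. Of all 32851 promoter windows of this length, 7.81% hold the AP-1 pattern with any central base, 61.3% the NFAT core and 5.0% both. The Efnb2 window (chr8:8661193-8661492, minus strand) holds neither sequence. One of the 2 Sema6d windows on chromosome 2 holds 1 NFAT core and no AP-1 match. These matches describe the letters of the windows only, and the sources used here do not say which start was used in the cultures.

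Sema4d was read clearly in the Fos+/+ cultures and in the deltaNFAT culture, and dimly in the Fos-/- cultures with GFP virus and without virus. Its probe set (160836_at) read 178 with deltaNFAT virus, 87.0 with GFP virus and 46.8 without virus in Fos-/- spleen, against 309 in Fos+/+ bone marrow and 707 in Fos+/+ spleen. All 3 Fos-/- cultures lay below both Fos+/+ cultures. In this order of levels the Fos+/+ spleen array was 2.29-fold over bone marrow, bone marrow 1.74-fold over deltaNFAT, deltaNFAT 2.05-fold over GFP, and GFP 1.86-fold over Fos-/- spleen without virus. The bone marrow and deltaNFAT values, and the GFP and no-virus values, are therefore neighbours not separated by 2-fold. Within their arrays these readings stood at the 80.1th percentile of the probe sets with 1 gene symbol with deltaNFAT, the 65.2th with GFP, the 52.9th in Fos-/- spleen, the 89.2th in bone marrow and the 96.6th in Fos+/+ spleen.

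Sema6d was dim in every culture. Its probe set (95165_at) read 12.4 with deltaNFAT virus, 41.2 with GFP virus and 41.4 without virus in Fos-/- spleen, against 46.5 in Fos+/+ bone marrow and 7.80 in Fos+/+ spleen. The GFP, no-virus and bone marrow arrays lay just past 2 times the floor, and the deltaNFAT and Fos+/+ spleen arrays lay under it. Efnb2 was dim as well, with its probe set (160857_at) reading 59.7 with deltaNFAT virus, -14.7 with GFP virus and -27.3 without virus in Fos-/- spleen, against 22.7 in Fos+/+ bone marrow and 50.8 in Fos+/+ spleen. The deltaNFAT and Fos+/+ spleen arrays were the high ones and differed from each other by 1.18-fold. Every Sema6d and Efnb2 value was smaller than the 96.6 that marks the size of the background, whereas Sema4d passed it with deltaNFAT, in bone marrow and in Fos+/+ spleen.

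**Figure D1:**
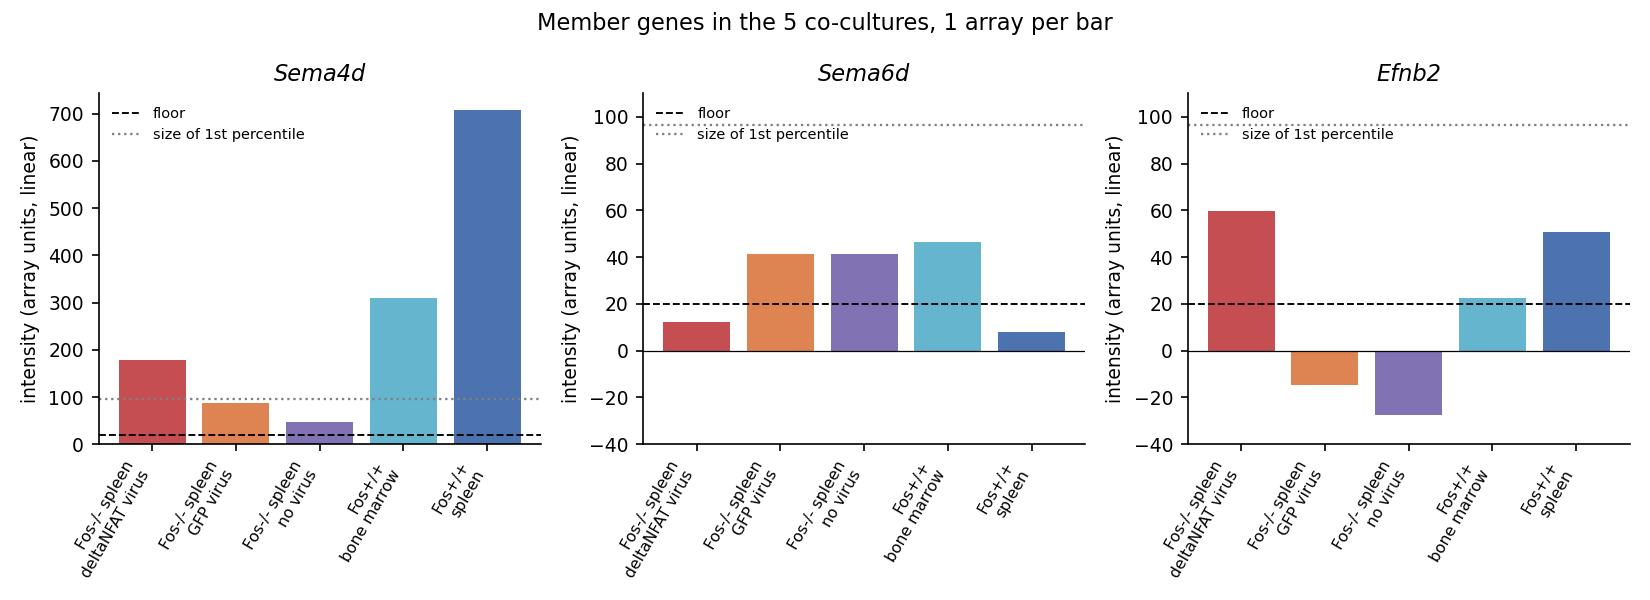
Intensity (array units, linear scale, 1 panel per gene with its own axis) of Sema4d, Sema6d and Efnb2 in the 5 co-cultures, 1 array per bar. The dashed line is the floor of 19.8 and the dotted line the background size of 96.6, and Sema4d reaches 707 in Fos+/+ spleen while no Sema6d or Efnb2 bar reaches the dotted line.

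The comparison of Fos-/- with Fos+/+ spleen asks what the loss of Fos does in spleen-derived cultures. Sema4d read 46.8 in Fos-/- spleen and 707 in Fos+/+ spleen, a log2 ratio of -3.92, or 15.1-fold lower in Fos-/-. The Fos-/- reading lies within the range of the background, so the size of this ratio is uncertain, and with the floor at 96.6 the log2 ratio was -2.87, a bound on its size. Only 8 of the 4997 genes bright enough to be called had a lower ratio. Efnb2 was at least 2.57-fold lower in Fos-/- (under the floor in Fos-/- spleen, 50.8 in Fos+/+ spleen), and Sema6d was at least 2.09-fold higher (41.4 in Fos-/- spleen, under the floor in Fos+/+ spleen). The Efnb2 and Sema6d calls were lost at floors of 65.1 and 96.6. Thus 2 of the 3 measured genes were called lower and 1 higher, where 6.48% of the bright genes were called lower and 6.42% higher. Because this comparison entered the choice of Sema4d, nothing is read from that count.

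Most osteoclast markers were lower in the Fos-/- spleen culture as well. Of 13 osteoclast markers on the array, 11 were bright enough, and 10 of these were lower and 0 higher, beside 6.48% and 6.42% of all bright genes. The list had a median log2 ratio of -2.88 against 0.03 for all genes above the floor. Their summed intensity was 2550 in Fos-/- spleen and 17210 in Fos+/+ spleen, with the calcitonin receptor Calcr and the carbonic anhydrase Car2 under the floor in Fos-/- spleen. Fewer osteoclasts and less RNA per cell cannot be told apart in whole-dish RNA, and the part of this marker difference in the Sema4d values was not tested. T cells are another known source of Sema4d. Of 12 T cell markers on the array, the defining genes Cd3d, Cd3e, Cd3g, Cd2, Cd5, Cd8a, Cd8b1 and Thy1 were under the floor in all 5 arrays. Of the other 4, Cd4, which macrophages can carry too, read 167 in Fos-/- spleen and 25.0 in Fos+/+ spleen and was called higher, and Lat read 156 in Fos-/- spleen and 169 in Fos+/+ spleen. Cd247 was above the floor in 3 arrays and Cd28 in 2, at no more than 44.3. The summed intensity of the T cell markers was 323 in Fos-/- spleen and 229 in Fos+/+ spleen, with a range of 229 to 375 over the 5 arrays. B cell markers summed to 1022 in Fos-/- spleen and 1126 in Fos+/+ spleen, macrophage markers to 9003 and 7238 in the same order, and stromal and osteoblast markers to 15117 and 12560. Neutrophil markers summed to 3179 in Fos-/- spleen and 1371 in Fos+/+ spleen, where 4 of 7 bright ones were higher and 0 lower, so this cell type's markers differed along with Sema4d. The part of these cell types in the Sema4d values was not tested.

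Fos-/- spleen with GFP virus over Fos+/+ bone marrow is a further ratio of Fos-/- to Fos+/+ cells, which differs in tissue and virus too. It is also of the kind of difference Sema4d was chosen by, so its values are a description and no separate check. Sema4d read 87.0 in Fos-/- spleen with GFP virus and 309 in Fos+/+ bone marrow, a log2 ratio of -1.83, or 3.55-fold lower. There 87 of 5257 bright genes had a lower ratio. Sema6d read 41.2 in Fos-/- spleen with GFP virus and 46.5 in Fos+/+ bone marrow and was not called, and Efnb2 was under the floor in Fos-/- spleen with GFP virus and at 22.7 in Fos+/+ bone marrow, too dim to be called. So 1 of 2 bright members was lower and 0 higher, beside 9.23% of bright genes lower and 5.97% higher. The higher Sema6d value of Fos-/- spleen over Fos+/+ spleen was not seen in this second ratio. Osteoclast markers were again lower, 11 of 12 bright ones, with summed intensities of 2161 in Fos-/- spleen with GFP virus and 12732 in Fos+/+ bone marrow.

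The comparison of the 2 viruses asks what deltaNFAT does in cells without Fos. Sema4d read 178 with deltaNFAT virus and 87.0 with GFP virus in Fos-/- spleen, a log2 ratio of 1.03, or 2.05-fold higher. The ratio was only just past 2-fold, 160 of 5032 bright genes had a higher one, and at a floor of 96.6, above the GFP reading, it came to 0.88 and was not called. The deltaNFAT reading was 3.81-fold that of Fos-/- spleen without virus and 25.2% of that of Fos+/+ spleen, beside 12.3% for the GFP array and 6.62% for Fos-/- spleen without virus. Efnb2 was at least 3.02-fold higher with deltaNFAT (59.7 with deltaNFAT virus, under the floor with GFP virus), and Sema6d was at least 2.08-fold lower (under the floor with deltaNFAT virus, 41.2 with GFP virus). Of the 3 members, 2 were thus called higher and 1 lower, beside 3.54% of bright genes higher and 2.58% lower. The Efnb2 and Sema6d calls were lost at a floor of 65.1, which no reading of either gene reached.

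Sema4d and Efnb2 were lower in Fos-/- spleen, against Fos+/+ spleen, and higher with deltaNFAT than with GFP, and Sema6d was higher in Fos-/- spleen and lower with deltaNFAT. Sema4d was chosen by its Fos difference and the Sema6d and Efnb2 readings lie within the background, so these directions are a description only. Among osteoclast markers 7 of 11 bright ones were higher and 0 lower with deltaNFAT, beside 3.54% and 2.58% of all bright genes. The list's median log2 ratio was 1.33 against 0.00 for all genes above the floor. Its summed intensity was 4425 with deltaNFAT virus and 2161 with GFP virus. Of the 7, Calcr, Car2 and Slc9b2 read 86.4, 48.4 and 52.2 with deltaNFAT virus and under the floor with GFP virus. Those readings, and both of Nfatc1, lie within the range of the background. The deltaNFAT readings of Acp5, Ckb and Ctsk, the rest of the 7, lay above 96.6. In Fos-/- spleen without virus Acp5 read 462, Ckb 448 and Ctsk 61.3. They read 239, 203 and 79.3 with GFP virus and 964, 524 and 372 with deltaNFAT virus. For Acp5 and Ckb the GFP reading thus lay below the no-virus one. In GFP over no virus 1 of 7 bright osteoclast markers, Ckb, was lower and 0 higher, beside 7.06% and 10.3% of bright genes. Nfatc1, which encodes an NFAT protein that drives osteoclast differentiation, read 82.7 with deltaNFAT virus and 23.4 with GFP virus, against 751 in Fos+/+ spleen. No source states whether its probe set also reads a viral transcript.

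Fos-/- spleen with GFP virus was also set against Fos-/- spleen without virus. Sema4d was 1.86-fold higher (87.0 with GFP virus, 46.8 without virus), Sema6d read 41.2 with GFP virus and 41.4 without virus, and Efnb2 was under the floor in both arrays. Thus 0 of 2 bright members were called in either direction, beside 10.3% of bright genes higher and 7.06% lower. The 1.86-fold step of Sema4d between these Fos-/- arrays is close to the 2.05-fold step between the 2 viruses, and without replicates neither can be set against a spread. Fos+/+ bone marrow over Fos+/+ spleen showed Sema4d 2.29-fold lower (309 in bone marrow, 707 in spleen; log2 ratio -1.19) and Efnb2 called lower between dim readings (22.7 in bone marrow, 50.8 in spleen). Sema6d was at least 2.35-fold higher in bone marrow (46.5, under the floor in spleen). The Efnb2 and Sema6d calls were lost at floors of 65.1 and 96.6. That gave 1 of 3 members higher and 2 lower, beside 13.2% of bright genes higher and 7.18% lower. In the same comparison 9 of 9 bright neutrophil markers were higher, with summed intensities of 9667 in bone marrow and 1371 in spleen. The comparisons with Fos+/+ spleen share that array, so the like directions of all 3 genes in them do not count as separate observations.

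Among the semaphorins, only Sema4d was called lower in the Fos spleen comparison. Of 16 semaphorin genes on the array 10 were above the floor in at least 1 array. In Fos-/- over Fos+/+ spleen 2 of 8 bright ones were higher and 1, Sema4d, lower, beside 6.42% and 6.48% of all bright genes. Sema4d was chosen by this comparison, so nothing is read from that count. The median log2 ratio of the semaphorins was -0.00. The second higher one beside Sema6d was Sema3f, a secreted semaphorin, at least 2.18-fold higher and dim (43.2 in Fos-/- spleen). Sema4a, an immune semaphorin, read 406 in Fos-/- spleen and 218 in Fos+/+ spleen and was not called. Sema7a, a membrane-anchored semaphorin that binds integrins, read 86.2 in Fos-/- spleen and 170 in Fos+/+ spleen and came just short of 2-fold. Sema4f read 340 in both arrays, and Sema4b read 63.7 in Fos-/- spleen and 69.8 in Fos+/+ spleen. Set against GFP, deltaNFAT virus had 1 of 7 bright semaphorins higher (Sema4d) and 1 lower (Sema6d), beside 3.54% and 2.58% of all bright genes. In GFP over no virus 0 of 8 were called, beside 10.3% of bright genes higher and 7.06% lower. In bone marrow over spleen Sema3e, the secreted ligand of plexin-D1, was at least 3.59-fold higher (71.1 in bone marrow, under the floor in spleen). Sema6c read between 56.0 and 87.7 over the 5 arrays and Sema5b was above the floor with GFP virus alone, at 34.8.

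Of 14 semaphorin receptors and coreceptors on the array 13 were above the floor in at least 1 array, and in Fos-/- over Fos+/+ spleen 4 of 10 bright ones were lower and 0 higher, beside 6.48% and 6.42% of all bright genes. The median of the log2 ratios was -0.18 against 0.03 for all genes. Plexin-D1 (Plxnd1) read 163 in Fos-/- spleen and 768 in Fos+/+ spleen, 4.71-fold lower. The receptor kinase Mst1r, which can associate with class B plexins, read 23.5 in Fos-/- spleen and 139 in Fos+/+ spleen, a log2 ratio of -2.57. Cd72, the B cell receptor of Sema4d, read 29.7 in Fos-/- spleen and 131 in Fos+/+ spleen, a log2 ratio of -2.14. The Fos-/- readings of Mst1r and Cd72 lie within the range of the background, and both calls were lost at a floor of 96.6. Timd2, a receptor of Sema4a, was 2.32-fold lower (25.5 in Fos-/- spleen, 59.2 in Fos+/+ spleen), but its 3 probe sets averaged together gave no call, nor did the raised floors. Of the 4 calls that of Plxnd1 alone held in every setting. No probe set with 1 gene symbol carried Plxnb1, the gene of plexin-B1, or Trem2, so neither was measured here. The class B plexin gene Plxnb2 read 602 in Fos-/- spleen and 650 in Fos+/+ spleen, and Tyrobp 1688 in Fos-/- spleen and 1963 in Fos+/+ spleen.

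Most receptors were not called between the viruses, where fewer of all genes were called as well. Plxnd1 read 228 with deltaNFAT virus and 283 with GFP virus, Mst1r was under the floor in both arrays, and Cd72 read 75.3 with deltaNFAT virus and 40 with GFP virus. None of these 3 was called. Of 10 bright receptors 0 were higher and 1, Timd2, was lower, beside 3.54% and 2.58% of all bright genes. The Timd2 call (2.49-fold) was again not seen in the mean of its probe sets. In Fos-/- spleen with GFP virus over Fos+/+ bone marrow Mst1r was at least 8.5-fold lower, a call lost at a floor of 96.6, while Plxnd1 read 283 with GFP virus and 339 in bone marrow and was not called. Neuropilin-1 (Nrp1), a coreceptor of class 3 semaphorins, read 733 with deltaNFAT virus, 879 with GFP virus and 347 without virus in Fos-/- spleen, against 668 in Fos+/+ bone marrow and 238 in Fos+/+ spleen. Its levels thus split the bone marrow and virus arrays from the 2 uninfected spleen arrays rather than the Fos genotypes. Adam9 and Adam10, proteases of the shedding list, split the same way. Adam10 read 294 with deltaNFAT virus, 316 with GFP virus and 98.9 without virus in Fos-/- spleen, against 266 in Fos+/+ bone marrow and 104 in Fos+/+ spleen. Plxna1, which encodes the Sema6d receptor plexin-A1, was above the floor in bone marrow alone, at 74.4, and read below -79 in the other 4 arrays.

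**Figure D2:**
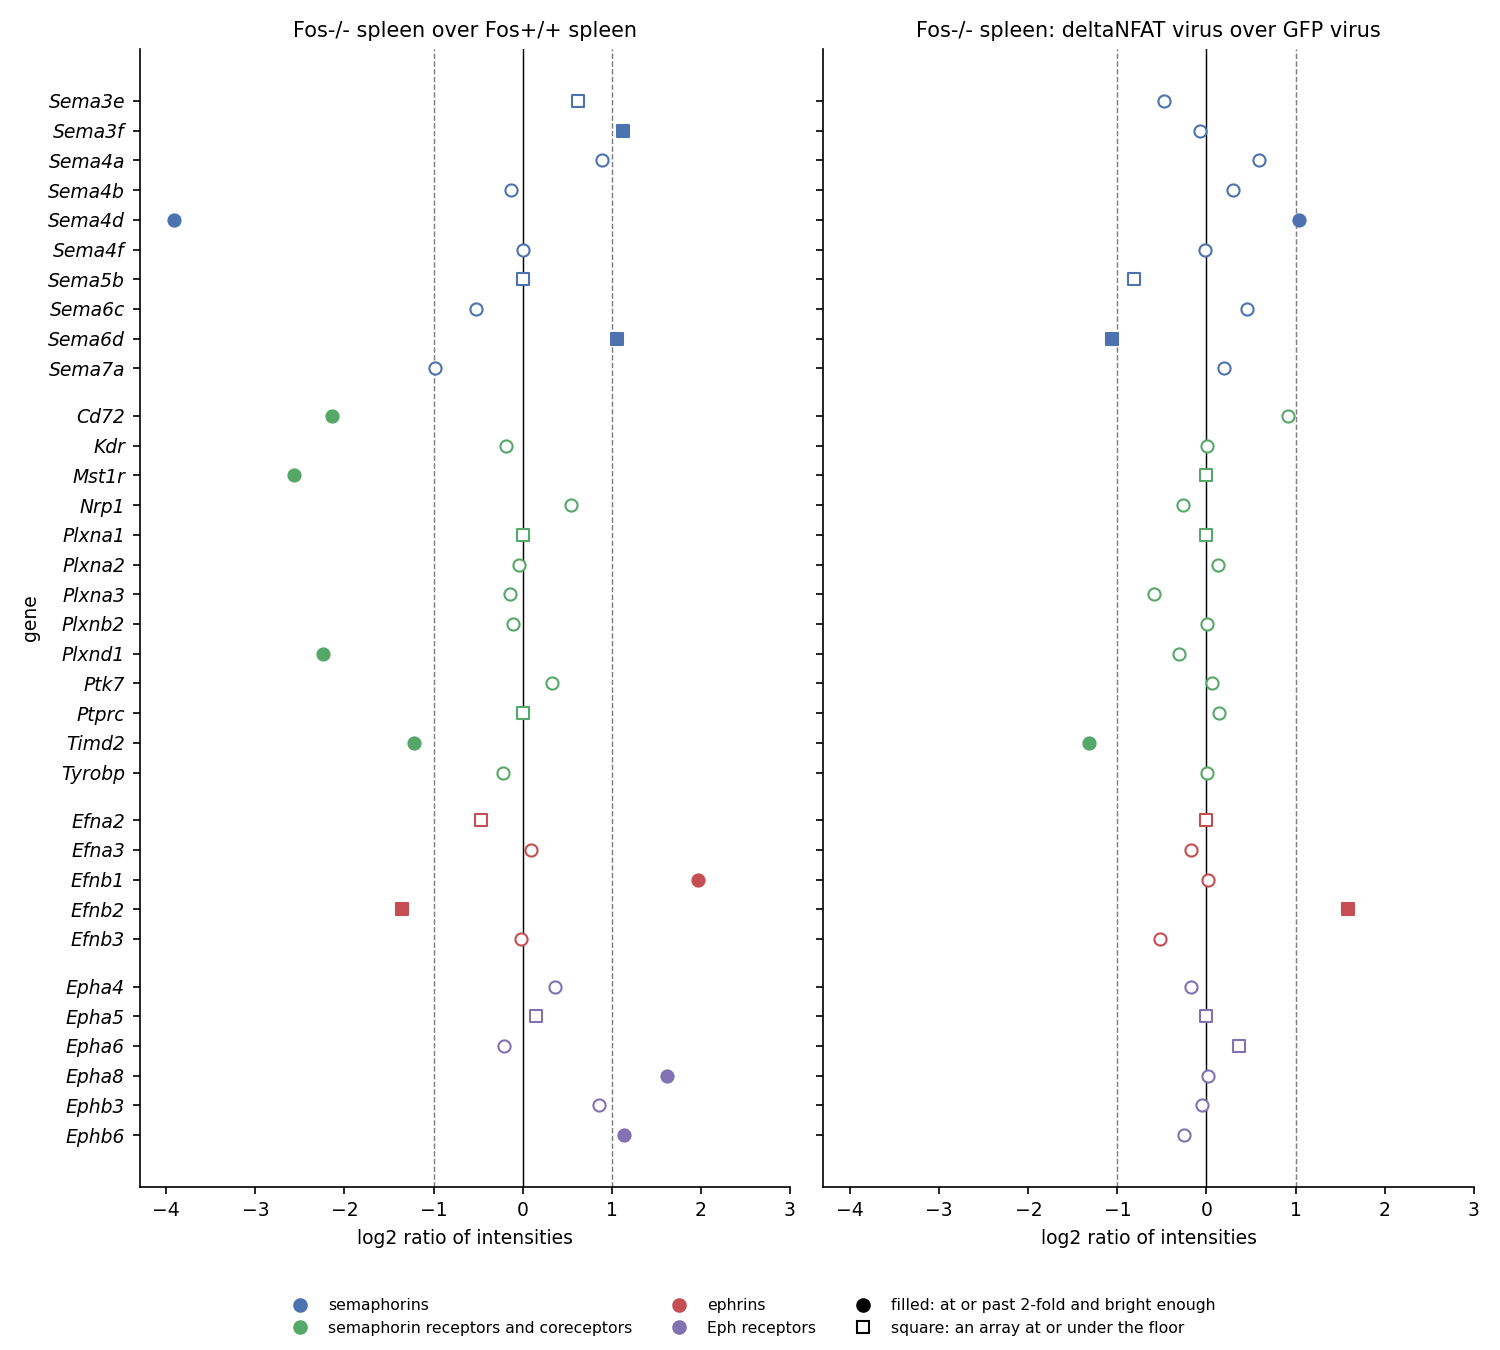
Log2 ratio of intensities (x axis) of each measured semaphorin, receptor, ephrin and Eph receptor (y axis) in Fos-/- over Fos+/+ spleen (left) and in deltaNFAT over GFP virus in Fos-/- spleen (right), 1 array per group, dashed lines at 2-fold, filled where called and square where an array is at or under the floor. Sema4d lies at -3.92 on the left and 1.03 on the right, and Plxnd1, Mst1r and Cd72 lie on the lower side on the left and within 2-fold on the right.

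Among the ephrins the class B ligands Efnb1 and Efnb2 were called in opposite directions between Fos-/- and Fos+/+ spleen. All these readings lie within the range of the background. Of 8 ephrins on the array 5 were above the floor in at least 1 array. Ephrin-B1 (Efnb1), which shares Eph receptors with ephrin-B2, read 42.0 with deltaNFAT virus, 41.4 with GFP virus and 81.0 without virus in Fos-/- spleen, against 34.4 in Fos+/+ bone marrow and 20.7 in Fos+/+ spleen. In Fos-/- over Fos+/+ spleen it was 3.91-fold higher, a call lost at a floor of 65.1, where Efnb2 was at least 2.57-fold lower. Efnb3 read 202 in Fos-/- spleen and 204 in Fos+/+ spleen, and Efna3 364 in Fos-/- spleen and 340 in Fos+/+ spleen. In that comparison 1 of 4 bright ephrins was higher and 1 lower, beside 6.42% and 6.48% of all bright genes. The median of the log2 ratios was -0.02. In deltaNFAT over GFP 1 of 4 bright ephrins was higher, Efnb2, and 0 lower, beside 3.54% and 2.58% of all bright genes. Efnb1 was not called there. In Fos-/- spleen with GFP virus over Fos+/+ bone marrow neither Efnb1 nor Efnb2 was called.

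Of 9 Eph receptors on the array 6 were above the floor in at least 1 array, and in Fos-/- over Fos+/+ spleen 2 of 4 bright ones were higher and 0 lower, beside 6.42% and 6.48% of all bright genes. The median of the log2 ratios was 0.61, against 0.03 for all genes above the floor. Epha8 read 143 in Fos-/- spleen and 46.5 in Fos+/+ spleen, 3.08-fold higher, a call lost at a floor of 96.6. Ephb6, which lacks kinase activity, read 273 in Fos-/- spleen and 124 in Fos+/+ spleen, 2.20-fold higher, but it was not called in the mean of its 2 probe sets. Ephb3, a receptor of class B ephrins, read 170 in Fos-/- spleen and 93.7 in Fos+/+ spleen and was not called. With deltaNFAT over GFP 0 of 4 bright Eph receptors were called, beside 3.54% of all bright genes higher and 2.58% lower. Ephb6 read 108 with deltaNFAT virus and 129 with GFP virus, both lower than the 273 without virus. Epha4 read between 58.2 and 116 over the 5 arrays, Epha6 between 17.3 and 45.8, and Epha5 did not pass 22.0. Endothelial cells carry Efnb2 and Ephb4 too. Of 9 endothelial markers on the array, 8 were above the floor in at least 1 array and Tek in none, while Emcn, Eng and Kdr were above it in all 5. The summed intensity was 259 in Fos-/- spleen and 217 in Fos+/+ spleen, and 180 with deltaNFAT virus and 275 with GFP virus. Eng was called higher in Fos-/- spleen (126, against 62.8 in Fos+/+ spleen) and lower with deltaNFAT virus (29.2, against 75.1 with GFP virus), both times opposite to Efnb2. Their part in the Efnb2 values was not tested.

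**Figure D3:**
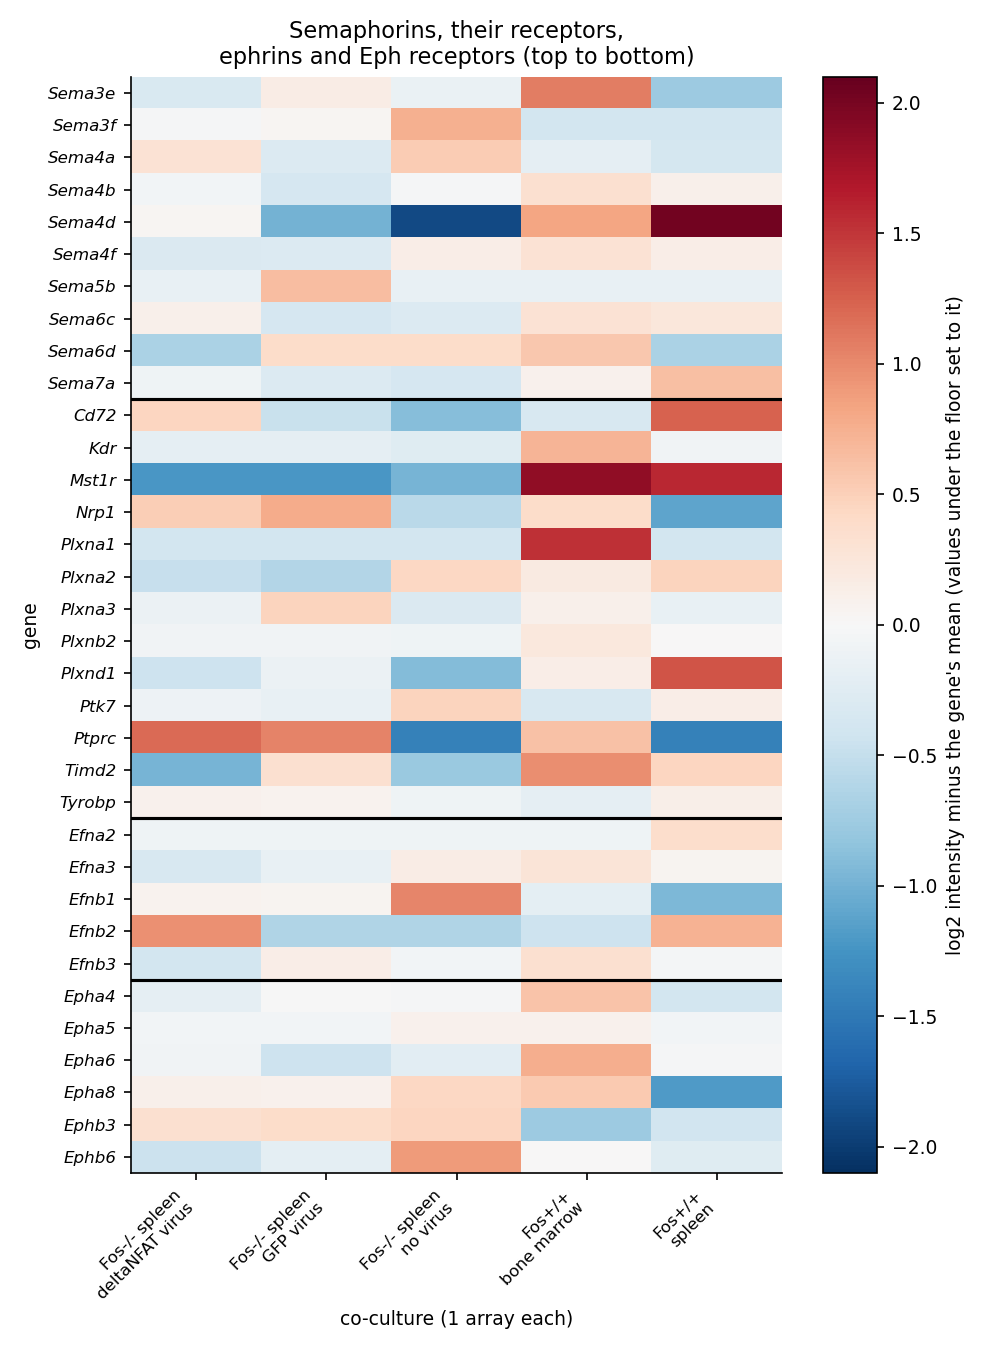
Log2 intensity of each gene minus its own mean over the 5 arrays (colour, red above the mean and blue below it, values under the floor of 19.8 set to it) in the 5 co-cultures (columns), with semaphorins, receptors, ephrins and Eph receptors from top to bottom. Sema4d and Mst1r are among the genes above their means in both Fos+/+ cultures, as are Plxnd1, Sema7a and Sema6c. Nrp1 is among those above their means in the bone marrow and virus arrays.

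Genes known to act downstream of plexins or Eph receptors were mostly not called between Fos-/- and Fos+/+ spleen or between the viruses. The same held for bright genes of any kind, so nothing particular to these lists is read from it. In Fos-/- over Fos+/+ spleen, of 12 bright plexin signalling genes 1 was higher and 1 lower, beside 6.42% and 6.48% of all bright genes. The GTPase Rac2 read 393 in Fos-/- spleen and 1398 in Fos+/+ spleen, 3.56-fold lower, and the kinase Fyn read 196 in Fos-/- spleen and 95.2 in Fos+/+ spleen, 2.06-fold higher, a call lost after quantile normalization. Of 10 bright Eph and ephrin signalling genes 1 was higher and 1 lower, beside the same shares of all genes. The higher was the kinase Yes1 (2.74-fold, lost at the raised floors) and the lower the gelatinase Mmp9 (3.59-fold). With deltaNFAT over GFP 1 of 16 plexin signalling genes was called, lower, and 0 of 11 Eph and ephrin signalling genes. The shares of all bright genes were 2.58% lower and 3.54% higher. In GFP over no virus 4 of 15 plexin signalling genes were higher and 0 lower, beside 10.3% and 7.06% of bright genes. In bone marrow over spleen 5 of 16 were higher and 1 lower, beside 13.2% and 7.18%. Of 11 Eph and ephrin signalling genes 2 were higher and 1 lower with GFP, and 3 higher and 0 lower in bone marrow. Rasa1, of both lists, read 217 with GFP virus and 38.5 without virus in Fos-/- spleen, 5.63-fold higher. That call held in every setting, though the lower reading lies within the range of the background. Membrane-bound Sema4d can be released by the protease Mmp14, which read 488 in Fos-/- spleen and 1018 in Fos+/+ spleen, 2.09-fold lower. Mmp14 read 402 with deltaNFAT virus and 317 with GFP virus and was not called there. It was the only one of 8 bright shedding genes called in Fos-/- over Fos+/+ spleen, where 6.48% of all bright genes were lower and 6.42% higher.

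Other genes named as osteoclast-derived coupling signals went both ways. In Fos-/- over Fos+/+ spleen 5 of 15 bright ones were lower and 1 higher, beside 6.48% and 6.42% of all bright genes. The median of the log2 ratios was 0.22, against 0.03 for all genes above the floor. The growth factor gene Pdgfb read 47.9 in Fos-/- spleen and 122 in Fos+/+ spleen, 2.54-fold lower, a call lost at the raised floors. Sphk2, a kinase that makes sphingosine-1-phosphate, read 65.8 in Fos-/- spleen and 161 in Fos+/+ spleen, 2.44-fold lower, but was not called in the mean of its probe sets. The RANK receptor Tnfrsf11a was 2.37-fold lower (lost at a floor of 96.6) and the phosphatase Acp5 8.31-fold lower, both also osteoclast markers. In Fos-/- spleen with GFP virus over Fos+/+ bone marrow 5 of 13 bright ones were lower and 0 higher, beside 9.23% and 5.97% of all bright genes. These were Pdgfb, Sphk2, Tnfrsf11a, Acp5 and Ctf1. In that ratio the Pdgfb call was lost at the raised floors and the Sphk2 call at 96.6, while the calls of Tnfrsf11a and Acp5 held. Ctf1 was under the floor with GFP virus and at 85.9 in bone marrow. It was also the 1 higher gene in Fos-/- over Fos+/+ spleen (70.4 in Fos-/- spleen, under the floor in Fos+/+ spleen). Both Ctf1 calls were lost at the raised floors. For deltaNFAT over GFP 1 of 12 was higher and 0 were lower, beside 3.54% and 2.58% of all bright genes. The higher one was Acp5 (964 with deltaNFAT virus, 239 with GFP virus, 4.03-fold), which read 462 in Fos-/- spleen without virus. Pdgfb read 57.4 with deltaNFAT virus and 41.9 with GFP virus and was not called.

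The 10 genes whose pattern over the 5 arrays was nearest to that of Sema4d were found by the root-mean-square difference of log2 intensities, each gene centred on its own mean, among 4400 other genes reaching 79.2 in at least 1 array. In order they were Gpr137b-ps, Slc9b2, Rnf19b, Cd200, Tcirg1, Cd44, Dnmt3a, Hbegf, Pstpip1 and Myo1d, with differences of 0.38 to 0.54 against a median of 1.41. Tcirg1, a subunit of the osteoclast proton pump, read 220 with deltaNFAT virus, 173 with GFP virus and 140 without virus in Fos-/- spleen, against 452 in Fos+/+ bone marrow and 914 in Fos+/+ spleen. The sodium-proton exchanger gene Slc9b2 read 52.2 with deltaNFAT virus, 7.80 with GFP virus and -1.70 without virus in Fos-/- spleen, against 120 in Fos+/+ bone marrow and 357 in Fos+/+ spleen. In all 10 genes the Fos+/+ spleen array was the highest and bone marrow the next, as in Sema4d. The likeness is a description over 5 arrays that all genes share. Sema6d and Efnb2 did not reach 79.2 in any array and were not compared in this way.

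**Figure D4:**
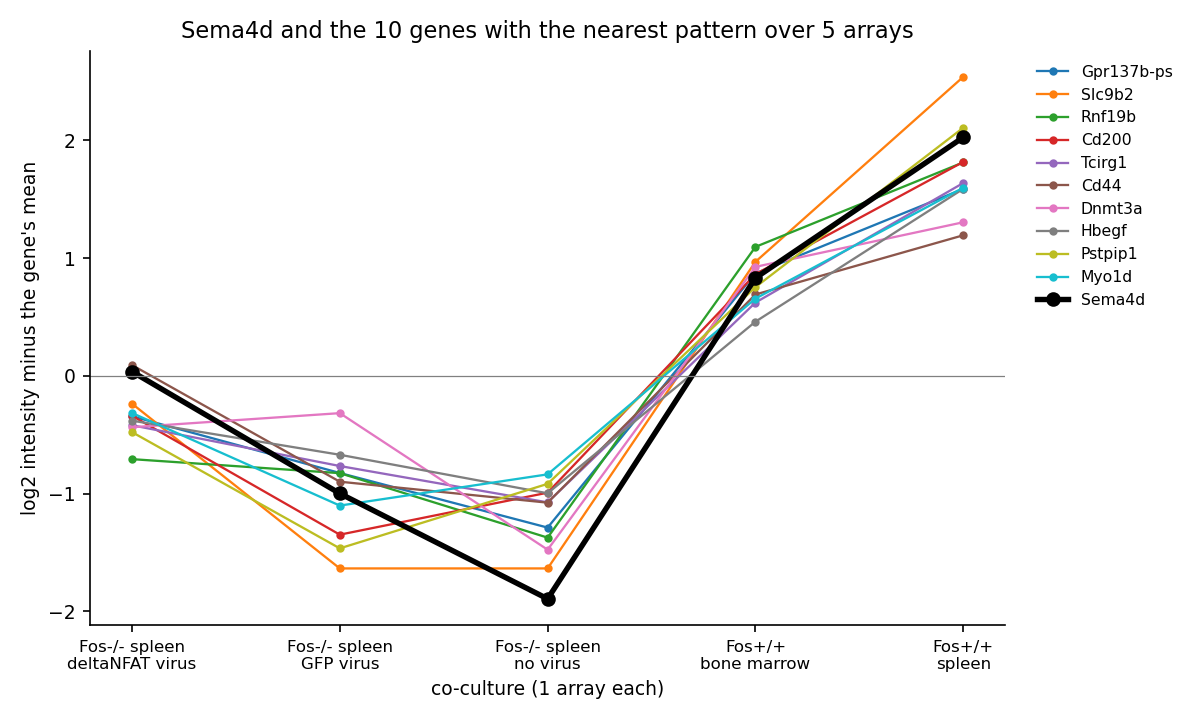
Log2 intensity minus each gene's mean (y axis, values under the floor set to it) in the 5 co-cultures (x axis, 1 array each) for Sema4d (black) and the 10 genes of nearest pattern; the lines only join the values of a gene. All peak in Fos+/+ spleen, and Sema4d has the lowest value of all the genes shown in Fos-/- spleen without virus.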

How the data were processed

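The deposited table holds an intensity for each of 12488 probe sets in 5 arrays, 1 per group. No label or header names the software that made these values. The deposited intensity values have the same trimmed mean in every array (100.1) and 20.3 to 22.4% of them lie at or below 0, which shows scaling and background subtraction. Arrays were scaled to an equal mean without the lowest and highest 2%, which moved no value by over 0.0033%. The 40th percentile of all values (19.8) was the floor, applied before log2. Symbols came from the platform annotation, with 10833 probe sets carrying 1 symbol outside the 66 control probe sets. The brightest probe set over the arrays stood for a gene. A match by gene identifier to RefSeq (GRCm38.p6) changed 0 symbols. Promoter windows are RefSeq's, from GRCm38.p6.

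With 1 array per group there is no replicate, test or p-value, and precision is limited by how few arrays there are. Named genes are the members, all measured semaphorins, semaphorin receptors, ephrins and Eph receptors, the called members of 4 further lists reaching 79.2 (at most 4 per list and comparison), the 10 nearest patterns, Fos and Nfatc1. Genes of the cell marker lists were named outside this rule, after their values were seen. The members and lists were chosen with earlier results of these data known. The ratio of Fos-/- spleen with GFP virus over Fos+/+ bone marrow, the floor of 96.6 and the motif search were added after the data were seen. No columns of other samples were in the table. Between 7282 and 7782 probe sets per array lay above the floor. Alternatives were quantile normalization, unscaled values, other floors or none, the mean of all probe sets and unsuffixed probe sets. The calling rule was tested on simulated data, with changes larger than 2-fold in genes reaching 79.2 in Fos-/- spleen. That test does not bear on ratios near 2-fold or on dim genes such as Sema6d and Efnb2. Python 3.11.15, numpy 2.4.6 and pandas 2.3.3 were used.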

Additional observations from a re-analysis of the deposited data

How the results depend on the processing

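No paired analysis was possible because each group has 1 array. Of 40 values of Sema4d under other settings 39 kept their side of the 2-fold call. Its log2 ratio ran from -3.92 to -2.87 in Fos-/- over Fos+/+ spleen, from -1.83 to -1.68 in Fos-/- spleen with GFP virus over Fos+/+ bone marrow and from -1.19 to -1.14 in bone marrow over spleen. With deltaNFAT over GFP it ran from 1.01 to 1.03, except at the floor of 96.6, where it was 0.88 and not called, because that floor lies above the GFP reading. In GFP over no virus it ran from 0 to 0.89 and was never called. Sema6d and Efnb2 kept their calls after quantile normalization, in unscaled values and at the 30th percentile (floor 7.40). At the 60th percentile (floor 65.1) and at 96.6 all 3 calls of each gene were lost and the ratios were 0, since every reading lies under those floors. At the floor of 7.40 Efnb2 in Fos-/- spleen with GFP virus over Fos+/+ bone marrow passed 2-fold, at -1.62, a lower bound. Without a floor 4 of the 5 Efnb2 ratios could not be taken, because 2 readings are below 0.

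Of 35 calls in the 4 family lists 8 held in every setting and 23 were lost only at the raised floors. Counts over all genes moved by over 1.5 times when the floor was changed, which also changed the brightness a call needs, set at 2 times the floor. In Fos-/- over Fos+/+ spleen 321 genes were higher and 324 lower, against 509 and 510 at 7.40, 125 and 139 at 65.1, and 71 and 98 at 96.6. With deltaNFAT over GFP these counts were 178 and 130, against 377 and 256, 37 and 21, and 20 and 10. With GFP over no virus they were 528 and 361, against 566 lower at 7.40, 235 and 106 at 65.1, and 162 and 52 at 96.6. In bone marrow over spleen they were 696 and 380, against 574 lower, 264 and 146, and 160 and 89. In Fos-/- spleen with GFP virus over Fos+/+ bone marrow they were 314 and 485, against 504 and 801, 114 and 143, and 73 and 78. The rank of Sema4d from the lowest ratio in Fos-/- over Fos+/+ spleen lay between 4 and 13.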

Other observations

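Some receptors read by the array split the cultures by other lines than the Fos genotype. Ptprc, the leukocyte phosphatase CD45 with which Sema4d associates on T cells, read 120 with deltaNFAT virus, 109 with GFP virus and -5.70 without virus in Fos-/- spleen, against 80.5 in Fos+/+ bone marrow and 0.50 in Fos+/+ spleen. The adaptor Tyrobp, also a gene of blood cells, read 1581 to 1963 in all 5 arrays.

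The 2 Sema7a probe sets disagreed. One read 104 with deltaNFAT virus, 90.4 with GFP virus and 86.2 without virus in Fos-/- spleen, against 117 in Fos+/+ bone marrow and 170 in Fos+/+ spleen, while the other read 46.9, 66.0, 3.20, 48.8 and 6.80 in the same cultures.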
